A study of Mus musculus with 10 samples.

Results

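The genes described here encode the contractile apparatus of smooth muscle: Acta2, Actg2, Tagln, Cnn1, Tpm1, Tpm2, Lmod1, Myl9, Myh11 and Des. They were chosen by name, and all 10 were found among the 23337 gene symbols of the data. 9 of them passed the low-count filter that left 12313 genes to test, and Myh11 did not. Expression was read by RNA sequencing in 10 libraries from mouse embryonic fibroblasts, connective-tissue cells of the embryo, here immortalised. Cells were labelled either Slfn2 WT or Slfn2 KO, a knockout of Slfn2, which is a Schlafen family gene known to respond to interferon. The 4 groups were WT-labelled cells left untreated (3 libraries), WT-labelled cells given mouse interferon-β (IFN-β) at 5000 IU/ml for 6 h (3 libraries), KO-labelled cells left untreated (2 libraries) and KO-labelled cells given the same IFN-β (2 libraries). All groups share the immortalisation and the growth medium. The labels number the libraries 1 to 3 in WT-labelled groups and 1 and 2 in KO-labelled groups, and do not say what a number marks. They also do not say how many cultures, embryos or clones the cells of each label came from. The p-values therefore measure the spread between these libraries, and the labels do not say whether that spread is between cultures or technical.

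Smooth muscle shortens when myosin filaments pull on actin thin filaments. ACTA2 and ACTG2 are the smooth-muscle actins, tropomyosins (TPM1, TPM2), calponin (CNN1) and transgelin (TAGLN) decorate the filament, leiomodin (LMOD1) seeds it, MYL9 is the regulatory light chain whose phosphorylation switches myosin on, MYH11 is the smooth-muscle myosin heavy chain, and desmin (DES) is the muscle intermediate filament. Fibroblasts that take on a myofibroblast state also make several of these proteins, ACTA2 above all. Many of the genes are known targets of serum response factor (SRF), which binds CArG boxes and works with the coactivators myocardin and the MRTFs (here Mkl1 and Mkl2), which sense free actin.

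The CArG boxes in these promoters are shown because SRF reads them. RefSeq promoters (GRCm38.p6, the 250 bases before the start) were matched for 7 of the 10 genes, and those of Tagln, Actg2 and Myh11 were not. The search covered both strands for a 10-base box, CC, then 6 bases that are each A or T, then GG, and for the same box with 1 of the 6 inner bases C or G. Capitals mark the box in each 30-base window, written 5′ to 3′ on the gene's strand. Distances count from the RefSeq start, and both Acta2 windows overlap an exon of Acta2 in the GENCODE annotation used below.
Acta2, 84 to 75 bases before the start, chr19:34255438-34255467, minus strand: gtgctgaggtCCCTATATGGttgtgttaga
Acta2, 34 to 25 bases before the start, chr19:34255388-34255417, minus strand: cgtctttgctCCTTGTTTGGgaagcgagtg
Myl9, 161 to 152 bases before the start, chr2:156775293-156775322, plus strand: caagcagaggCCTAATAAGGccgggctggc
Myl9, 99 to 90 bases before the start, chr2:156775355-156775384, plus strand: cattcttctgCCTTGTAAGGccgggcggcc
Only the Myl9 box at 161 bases met the strict form, which 1.47% of 32851 promoter entries hold. The other windows hold the form with 1 inner C or G, found in 7.24% of promoters. Either form was thus in 2 of 7 matched promoters, against 8.59% of all. The TEAD motif CATTCC, on either strand, was in the Acta2, Tpm1 and Lmod1 promoters and in 12.6% of all. The Cnn1, Tpm2 and Des windows held none of these letters.

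Per the submitters' processing notes and the values themselves, each value is a read count divided by the library's size factor, called a normalised read below. The libraries held 13565815 to 16329729 reads, and 3 reads, taken as the floor, equal 2.73 to 3.29 normalised reads. Slfn2 itself had 15.5 to 18.7 normalised reads in untreated WT-labelled libraries and 34.9 and 46.1 in untreated KO-labelled ones, then 449 to 573 and 75 and 171 with IFN-β. The untreated level therefore does not separate the labels in the direction of a loss, and reads over the whole gene do not show which part was deleted, so genotypes are named by label throughout. Of 12 fibroblast markers, all had reads in every library, with a summed level of 214409 to 479163. Collagen Col1a1 had 51864 to 141624, while Dcn (decorin) had 1567 to 2355 in WT-labelled and 77.3 to 107 in KO-labelled libraries. Of 12 skeletal muscle markers, 9 had at most 3 reads in any library, and Myod1, Myog and Myf5 had no more than that. Of 9 cardiac markers, 6 had at most 3 reads in any library, and Tnnt2 (cardiac troponin T) made up nearly the whole sum of 121 to 989. Of 7 pericyte markers, Kcnj8 and Abcc9 stayed at 3 reads or fewer and Rgs5 reached 5.47 normalised reads, while Notch3 (50.3 to 505), Anpep (63.4 to 627), Cspg4 (17.3 to 563) and Mcam (37.4 to 144) were expressed, for a sum of 628 to 1509. Summed markers reached 21.2 for endothelium, 7.23 for epithelium and 97 for macrophages.

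Acta2 (chromosome 19, 34241090 to 34255590, minus strand, GRCm38, as are all positions here) encodes α-smooth-muscle actin. In untreated WT-labelled libraries 1, 2 and 3 it had 27965, 8123 and 4676 normalised reads, and with IFN-β 27765, 6447 and 4335. In KO-labelled libraries 1 and 2 it had 33434 and 1898 untreated, and 34274 and 1823 with IFN-β. The 4 libraries numbered 1 lay between 27765 and 34274, and all others at or below 8123. The KO-labelled libraries numbered 1 were the highest of all 10 and those numbered 2 the lowest, while untreated and treated libraries of a number lay side by side.

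Actg2 (chromosome 6, 83512905 to 83536265, minus strand), the γ-smooth-muscle actin of gut and bladder, was likewise highest in number 1, though there in WT-labelled cells. Its normalised reads were 1669, 214 and 141 in untreated and 1523, 175 and 90.5 in treated WT-labelled libraries. KO-labelled libraries 1 and 2 had 1303 and 34.9 when untreated, against 1274 and 25.5 after IFN-β. Number 1 was above every other library in both genotypes, and the KO-labelled libraries numbered 2 were again the lowest. Actins are close in sequence, but of 50-base windows of the transcripts 0.326% in Acta2 and 0% in Actg2 were shared with another gene.

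Tagln (chromosome 9, 45929619 to 45936058, minus strand), a calponin-like actin-bundling protein, had 9080, 1312 and 1034 normalised reads in untreated WT-labelled libraries and 7790, 973 and 981 with IFN-β. Libraries 1 and 2 of the KO-labelled cells had 8128 and 224 untreated, and 7053 and 169 with IFN-β. The drop from number 1 to number 2 was thus 6.92-fold and 8.01-fold in WT-labelled pairs and 36.2-fold and 41.8-fold in KO-labelled pairs. Tagln overlaps Pcsk7 and Gm48529 on the opposite strand, and 58.3% of its 50-base windows are shared with them or their complement. The kit marks strand, but whether the counting used it is not given in the sources used here. Pcsk7 had 344.8 to 527.4 normalised reads over the 10 libraries, but it holds few of the shared windows. Gm48529 holds most of them and is not among the symbols analysed here, so its part in the Tagln counts was not tested.

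Cnn1 (chromosome 9, 22099216 to 22109630, plus strand) encodes calponin 1, an actin-bound brake on myosin. It had 130, 28.1 and 17.5 normalised reads in untreated WT-labelled libraries and 96.8, 12 and 21.2 with IFN-β. Libraries 1 and 2 of the KO-labelled cells had 523 and 31.1 untreated, and 427 and 26.4 with IFN-β. Number 1 was highest in each genotype, and here both KO-labelled libraries numbered 1 lay above both WT-labelled ones.

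Myl9 (chromosome 2, 156775420 to 156781658, plus strand), whose promoter holds the strict CArG box shown above, had 1240, 245 and 133 normalised reads in untreated WT-labelled libraries and 953, 144 and 109 with IFN-β. Libraries 1 and 2 of the KO-labelled cells had 3706 and 316 untreated, and 3271 and 194 with IFN-β. It followed Cnn1: highest in number 1, and higher in the KO-labelled than in the WT-labelled library of that number.

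The 2 tropomyosins, which lie along the actin filament in many cell types, varied least. Tpm1 (chromosome 9, 67022590 to 67049406, minus strand) had 20118, 14339 and 19921 normalised reads in untreated WT-labelled libraries and 17288, 13170 and 17305 with IFN-β. Tpm1 in KO-labelled libraries had 17370 and 8848 untreated, and 14636 and 7510 with IFN-β. Its WT-labelled libraries numbered 3 were level with those numbered 1, which sets it apart from the actins and Tagln.
Tpm2 (chromosome 4, 43514711 to 43523765, minus strand) had 2603, 1932 and 1227 normalised reads in untreated and 2293, 1431 and 1067 in treated WT-labelled libraries. In KO-labelled libraries Tpm2 had 2716 and 1430 untreated, and 2651 and 1210 with IFN-β. All Tpm2 values in number 1 exceeded all others.

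Lmod1 and Des had few reads, and Myh11 was at the floor. Lmod1 (chromosome 1, 135324807 to 135368065, plus strand) had 51.6, 15.5 and 5.16 normalised reads in untreated WT-labelled libraries and 41.2, 8 and 5.78 with IFN-β. Lmod1 in KO-labelled libraries had 9.44 and 19.8 untreated, and 7.39 and 5.47 with IFN-β. Its WT-labelled libraries numbered 1 stood above all others, and the KO-labelled ones of that number did not.
Des (chromosome 1, 75360329 to 75368579, plus strand) had 4.39, 13.6 and 12.4 normalised reads in untreated and 1.03, 10 and 1.93 in treated WT-labelled libraries. In KO-labelled libraries Des had 10.5 and 16 untreated, and 4.22 and 13.7 with IFN-β. Unlike the others, it was higher in number 2 than in number 1 of each group.
Myh11 (chromosome 16, 14194535 to 14291372, minus strand) had 0 to 3 reads in every library. The myosin heavy chain that defines mature smooth muscle was therefore not detectable above the floor at this depth, and no fold is given for it.

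**Figure D1:**
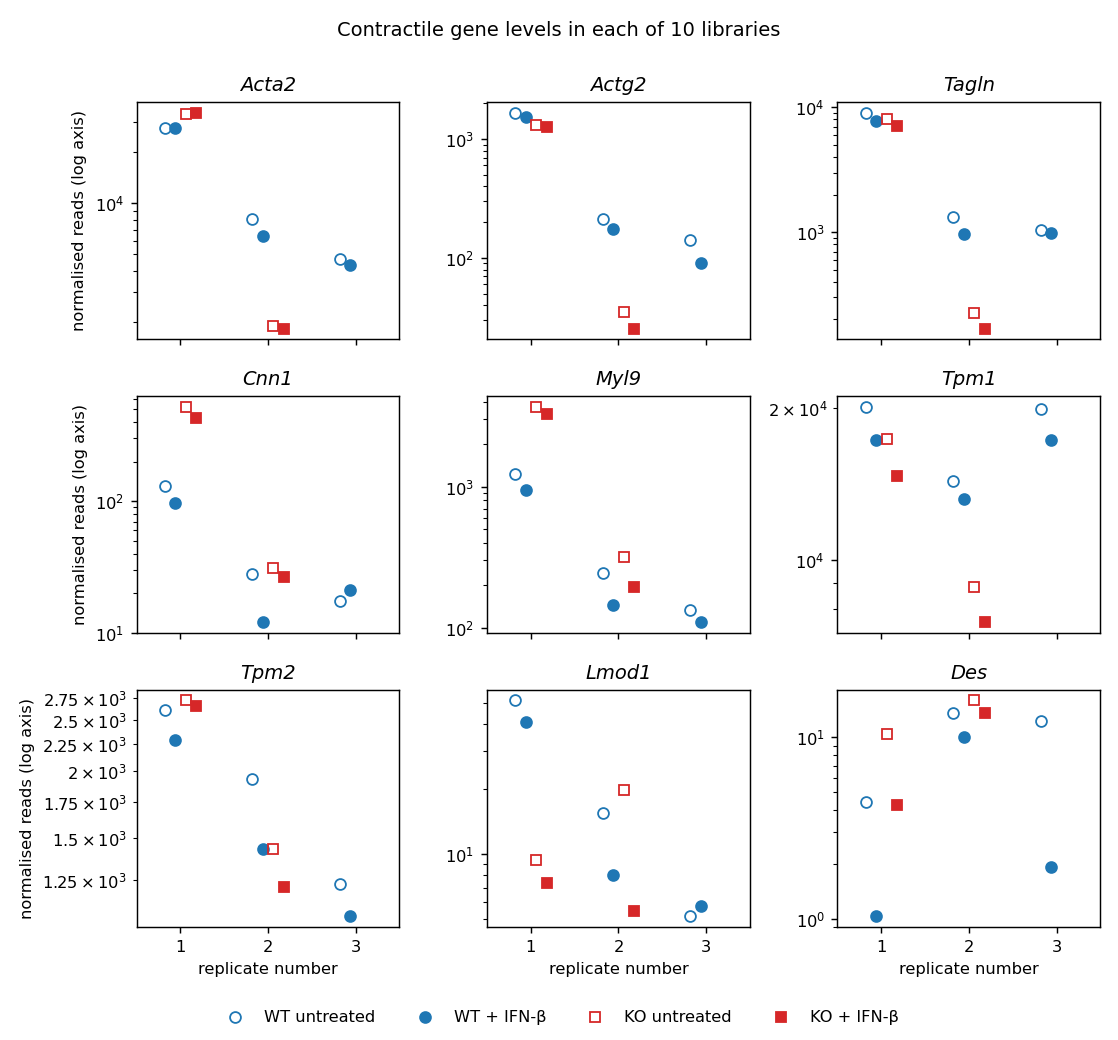
Normalised reads (log axis, own range per panel) of the 9 tested genes against replicate number, 1 point per library, blue circles WT-labelled, red squares KO-labelled, open untreated, filled IFN-β. Acta2, Actg2, Tagln, Cnn1, Myl9 and Tpm2 are highest in number 1 in every group, and the KO-labelled points numbered 2 lie lowest for Acta2, Actg2, Tagln and Tpm1.

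To set genes side by side, levels were divided by the length of all annotated exons of a gene together. This was 1.99 kb for Tagln, 2.2 kb for Acta2 and 6.49 kb for Tpm1. Which transcripts these cells make was not tested, and the order of genes depends on that length. Before the division Tpm1 exceeded Tagln in every library. Per kilobase, Acta2 stood first in number 1, at 12643 and 12734 normalised reads per kb in WT-labelled and 15225 and 15607 in KO-labelled libraries (lower and higher of the untreated and treated library). Tagln came next there, at 3919 and 4567 in WT-labelled and 3548 and 4089 in KO-labelled libraries. In WT-labelled number 1, Actg2 (978 and 1072 per kb), Myl9 (820 and 1067) and Tpm2 (788 and 895) followed Tpm1 with ranges that overlap or nearly meet, so their order is not settled by these libraries. In KO-labelled number 2 the order was different, with Tpm1 first at 1158 and 1364 per kb, Acta2 at 830 and 864, Tpm2 at 416 and 492 and Tagln at 84.8 and 113. Tpm1 also led in WT-labelled number 3, at 2668 and 3072 per kb against 1974 and 2129 for Acta2. Cnn1 ranked seventh in all 5 genotype and number combinations, and Lmod1, Des and Myh11 took the last places.

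The contractile genes differed most visibly by replicate number. With the 4 groups accounted for, 7 of the 9 tested genes were lower in libraries numbered 2 than in those numbered 1 and 1 was higher. Over all genes, 48.6% passed in this comparison, 23.3% lower and 25.3% higher. The test was limma on log2 of the normalised reads plus 1, two-sided, with Benjamini-Hochberg adjustment over all tested genes, and a gene passed at an adjusted p under 0.05. The median difference of the 9 genes was −3.07 on the log2 scale, against 0.02 for all genes.

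Actg2 and Tagln had the largest differences. Actg2 was lower in number 2 by a log2 difference of −4.21 ± 0.43 (SE), and Tagln by −4.09 ± 0.42. Cnn1 (−3.27 ± 0.34), Myl9 (−3.17 ± 0.25) and Acta2 (−3.07 ± 0.40) followed, with limma adjusted p from 0.000109 for Myl9 to 0.000643 for Acta2 among these 5. The tropomyosins passed with smaller differences, −0.79 ± 0.11 for Tpm2 and −0.70 ± 0.11 for Tpm1. Lmod1 did not pass (−0.82 ± 0.51, adjusted p = 0.207), and did so at −1.43 without KO-labelled untreated library 1 or 2. Des was higher in number 2 by 1.48 ± 0.41 (adjusted p = 0.0181), a call lost without any of 5 libraries (WT-labelled untreated 1, WT-labelled IFN-β 1 and 2, KO-labelled IFN-β 1 and 2; adjusted p 0.0502 to 0.0532) and with DESeq2 (0.0634).

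Number 3 exists only for WT-labelled cells. Against number 1, 7 of the 9 genes were lower and none was higher, where 12.6% of all genes were lower. Actg2 differed by −4.39 ± 0.56, Tagln by −3.66 ± 0.56, Myl9 by −3.48 ± 0.33 and Acta2 by −3.19 ± 0.52 on the log2 scale. Cnn1, Lmod1 and Tpm2 were also lower, while Tpm1 (−0.14 ± 0.15) and Des (0.69 ± 0.55) did not pass. Differences between the WT-labelled libraries alone were not the same. There number 1 exceeded number 3 by 3.55 untreated and 4.06 with IFN-β for Actg2, and by 3.13 and 2.99 for Tagln. Myl9 gave 3.21 and 3.12, and Acta2 2.58 and 2.68, all smaller than in the fit. For Lmod1 they were larger, at 3.09 and 2.64.

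The genes varied together across libraries. After the group means were removed, the deviations of the 7 genes other than Lmod1, Des and Myh11 correlated across the 10 libraries at r = 0.61 to 1.0, with a median of 0.97 over 21 gene pairs. This is a description of 10 libraries that share a few number values. In bulk RNA, fewer cells of a type and less RNA per cell cannot be told apart. Other values also went with the number. Genes with at least 1 read numbered 13658 to 14066 in libraries numbered 1 and 14082 to 14311 in those numbered 2. Of 11 tested fibroblast markers 5 were higher and 1 was lower in number 2 (Thy1, −0.99 ± 0.23). In either direction this share was near the 48.6% of all genes that passed (25.3% higher, 23.3% lower). The summed fibroblast markers were 273362 to 349711 in number 1, 304705 to 479163 in number 2 and 214409 to 215645 in number 3. The cardiac marker sum was 613 to 989 in number 1 and 121 to 519 in number 2, and Tnnt2 was lower there by −1.59 ± 0.26 on the log2 scale. All 4 tested pericyte markers passed, where 48.6% of all genes did. Notch3 (1.81 ± 0.25) and Anpep (1.43 ± 0.51) were higher and Mcam (−1.15 ± 0.15) and Cspg4 (−1.12 ± 0.30) lower in number 2. The part of cell composition in the number difference was not tested.

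For some of the genes the step from number 1 to number 2 was larger in KO-labelled cells. Fitted separately in each genotype, 8 genes were lower and Des was higher in WT-labelled cells (34.6% of all genes passed, 16.9% lower), and 7 were lower in KO-labelled cells (47.2% passed, 22.5% lower). Acta2 differed by −1.95 ± 0.10 in WT-labelled and −4.19 ± 0.10 in KO-labelled cells on the log2 scale, Tagln by −2.90 ± 0.11 and −5.28 ± 0.11, and Actg2 by −3.04 ± 0.17 and −5.39 ± 0.17. Untreated, number 1 exceeded number 2 by 3.44-fold for Acta2 in WT-labelled and 17.6-fold in KO-labelled libraries, and with IFN-β by 4.31-fold and 18.8-fold.

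**Figure D2:**
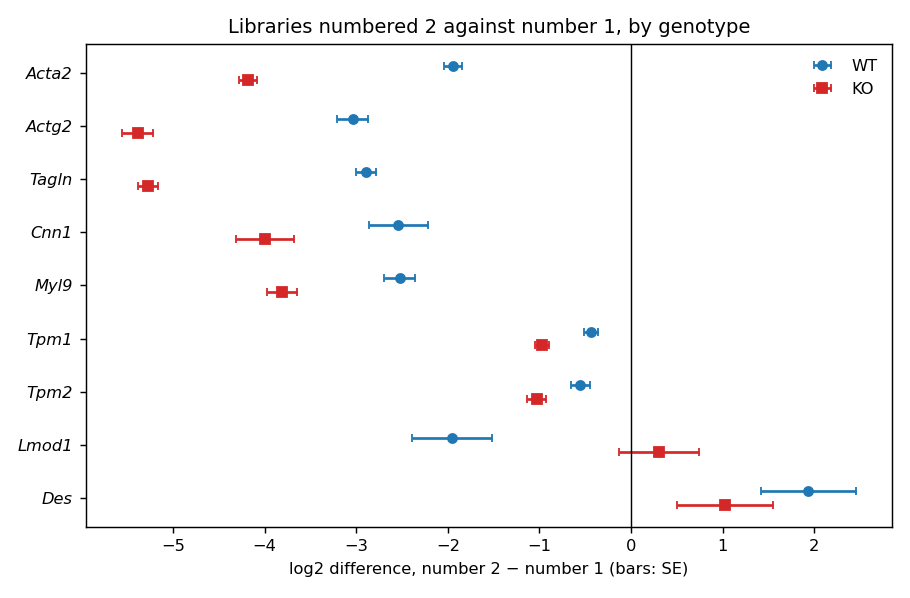
Log2 difference of libraries numbered 2 minus number 1 (x axis), fitted within each genotype, blue circles WT-labelled, red squares KO-labelled, bars SE. For Acta2, Actg2 and Tagln the KO-labelled value lies more than 2 log2 units further left than the WT-labelled one, while Lmod1 is below 0 only in WT-labelled cells.

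The difference between those steps was tested directly. It passed for 5 genes, all with the larger drop in KO-labelled cells, where 4.40% of all genes passed (2.01% in that direction and 2.40% in the other). The values were −2.38 ± 0.16 for Tagln, −2.35 ± 0.24 for Actg2, −2.24 ± 0.14 for Acta2, −1.28 ± 0.24 for Myl9 and −0.53 ± 0.11 for Tpm1 on the log2 scale (limma adjusted p = 0.000881, 0.00335, 0.000881, 0.0257 and 0.0401). Cnn1 (−1.46 ± 0.45, adjusted p = 0.118), Tpm2 (−0.47 ± 0.15, 0.116), Lmod1 (2.26 ± 0.62, 0.0879) and Des (−0.91 ± 0.74, 0.52) did not pass. This test takes the untreated and the treated library of a number as its replicates, so it does not measure variation between cultures. Without KO-labelled untreated or IFN-β library 1 the calls of all 5 genes were lost, with Acta2 at −2.29 and −2.19 and Tagln at −2.48 and −2.28. Without KO-labelled untreated or IFN-β library 2 Actg2 (−2.55 and −2.15), Myl9 (−1.54 and −1.02) and Tpm1 (−0.52 and −0.53) were lost. These fits leave 1 library in a group, so a lost call there is not particular to these genes. The count was 3 without WT-labelled untreated or IFN-β library 1, where 190 of 12282 and 224 of 12262 of all genes passed. The direction of the 5 genes held in each of these.

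Whether the contractile genes differed with Slfn2 label is the comparison the study's genotypes allow, and the answer changed with the replicate number. With groups compared as a whole, no tested gene passed, untreated (6.23% of all genes passed) or with IFN-β (6.55%). Without a block none had an unadjusted p under 0.05 with limma, where 2582 of 12313 genes did untreated and 2580 with IFN-β. Tests with edgeR and DESeq2 on the recovered reads also called none. Acta2 differed between KO-labelled and WT-labelled cells by −0.36 ± 1.52 untreated and −0.22 ± 1.52 with IFN-β on the log2 scale, Tagln by −0.77 ± 1.91 and −0.84 ± 1.91, and Myl9 by 1.65 ± 1.54 and 1.69 ± 1.54. The direction for Acta2 and Tagln turned with edgeR and DESeq2 (Acta2 0.37 and 0.38, Tagln 0.12 and 0.14 untreated), and with each treatment it turned without the KO-labelled library numbered 2 or the WT-labelled library numbered 1 (untreated, Acta2 1.71 and 0.37, Tagln 1.82 and 0.22). With the replicate number as a block the SE for Acta2 was 0.54 in place of 1.52, the background rose to 26.6% of all genes untreated and 26.0% with IFN-β, and only Tpm1 with IFN-β passed (13.3% of all genes were lower there), lower in KO-labelled cells by −0.52 ± 0.15 (limma adjusted p = 0.0361), a call lost when both WT-labelled libraries numbered 3 were also left out. With the block 5 of the 9 genes (Actg2, Cnn1, Myl9, Tagln and Tpm1) had an unadjusted p under 0.05 in each genotype comparison. Over all genes, 4916 of 12313 did untreated and 4828 with IFN-β.

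In libraries numbered 1, averaged over untreated and treated, Cnn1 and Myl9 were higher and Lmod1 was lower in KO-labelled cells, 3 of 9 genes, where 32.9% of all genes passed (16.2% higher, 16.7% lower). The log2 differences were 2.07 ± 0.32 for Cnn1, 1.68 ± 0.17 for Myl9 and −2.33 ± 0.44 for Lmod1. Acta2 (0.28 ± 0.10, limma adjusted p = 0.058), Tagln (−0.15 ± 0.11) and Actg2 (−0.31 ± 0.17) did not pass there. This test too takes the untreated and the treated library of a number as replicates, so its SE does not measure variation between cultures. Without KO-labelled IFN-β library 1 Cnn1 was lost (2.10 on the log2 scale). Without KO-labelled untreated library 1 Cnn1 (2.03) and Lmod1 (−1.65) were lost. Both of these fits leave 1 library in a group. Without WT-labelled untreated or IFN-β library 2 the count was 5, with Acta2 and Tpm1 added. Calls over all genes rose there too, to 6367 of 12278 and 6400 of 12275.

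In libraries numbered 2, 5 of the 9 genes were lower in KO-labelled cells and none was higher, where 41.2% of all genes passed, 20.6% lower. Actg2 differed by −2.66 ± 0.17, Tagln by −2.53 ± 0.11, Acta2 by −1.96 ± 0.10, Tpm1 by −0.75 ± 0.08 and Tpm2 by −0.34 ± 0.10 on the log2 scale. Acta2 in KO-labelled libraries numbered 2 was 0.234 times the WT-labelled level untreated and 0.283 times with IFN-β, while in number 1 the ratios were 1.2 and 1.23. Myl9 (0.40 ± 0.17) and Cnn1 (0.61 ± 0.32) did not pass. Here again the untreated and the treated library served as replicates, and variation between cultures was not measured. Leaving out 1 WT-labelled library at a time gave 4 to 6 genes, where 4435 to 6434 of all tested genes passed. Without WT-labelled untreated library 2, Cnn1 (1.15, limma adjusted p = 0.0172) and Myl9 (0.61, 0.0217) passed as higher in KO-labelled cells. Tpm2 was lost without any of 7 libraries (both KO-labelled untreated, both KO-labelled IFN-β, WT-labelled untreated 2 and 3, and WT-labelled IFN-β 3), at −0.22 to −0.44 on the log2 scale.

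**Figure D3:**
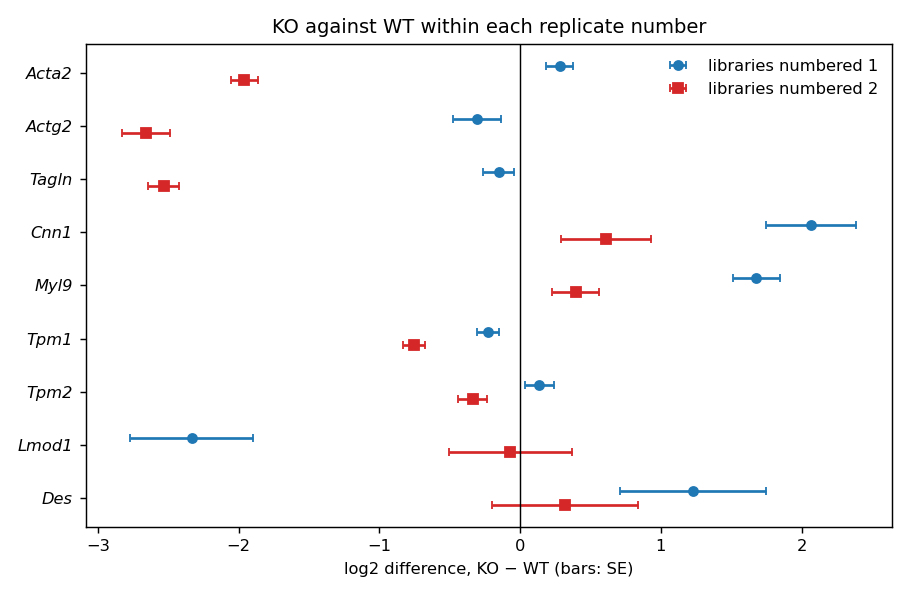
Log2 difference of KO-labelled minus WT-labelled libraries (x axis) within number 1 (blue circles) and number 2 (red squares), bars SE. Acta2, Actg2 and Tagln lie near 0 in number 1 and between −1.96 and −2.66 in number 2, while Cnn1 and Myl9 lie well above 0 in number 1.

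IFN-β moved no contractile gene past the test, in WT-labelled cells (2.21% of all genes passed) or KO-labelled cells (1.84%). Without a block none had an unadjusted p under 0.05 with limma, where 748 and 599 of 12313 genes did. With it 1 did in WT-labelled cells and 0 in KO-labelled cells, where 1890 and 1371 of all genes did. None passed with edgeR, DESeq2 or the replicate block (background 4.95% and 3.48%). The median difference of the 9 genes was −0.35 in WT-labelled and −0.26 in KO-labelled cells on the log2 scale, against −0.03 for all genes in both. When each treated library was set against the untreated one of its genotype and number, 40 of 43 differences were below 0. Actg2, Tagln, Myl9, Tpm1 and Tpm2 were lower with IFN-β in 5 of 5 pairs, and Acta2, Cnn1 and Lmod1 in 4 of 5. Des was lower in 3 of the 3 pairs where it could be scored above the floor. Because the pairs of a number share their libraries over genes that move together, these 43 are not independent. The share of all genes below 0 in the same pairs was not worked out, so these counts have no background beside them.

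For Acta2, Actg2, Tagln, Cnn1 and Myl9 the fitted IFN-β differences were smaller than the number differences, but Lmod1 differed by −0.999 with IFN-β in KO-labelled cells against −0.82 by number, and Des by −1.34 in WT-labelled cells against 1.48 by number. Tpm1 lay between −0.25 and −0.12 in the 5 pairs on the log2 scale, Tagln between −0.43 and −0.08, Myl9 between −0.76 and −0.18, and Acta2 between −0.33 and 0.04. The ranges were wider for Cnn1 (−1.16 to 0.26), Lmod1 (−1.68 to 0.14) and Des (−1.14 to −0.21). With the number fitted within each genotype, 7.93% of all genes passed in WT-labelled and 5.12% in KO-labelled cells, and still no contractile gene did. There, 6 of the 9 had an unadjusted p under 0.05 in WT-labelled and 3 in KO-labelled cells, where 2683 and 1918 of 12313 genes did. The nearest was Myl9 in WT-labelled cells (−0.48 ± 0.14, limma adjusted p = 0.0809). The interaction, which asks whether the response to IFN-β differs between genotypes, passed for no contractile gene with or without the block, none had an unadjusted p under 0.05, and 0 of all genes passed with limma (36 at an unadjusted p under 0.05), 0 with edgeR and 1 with DESeq2. With the number fitted within each genotype, 0.00812% of all genes passed.

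**Figure D4:**
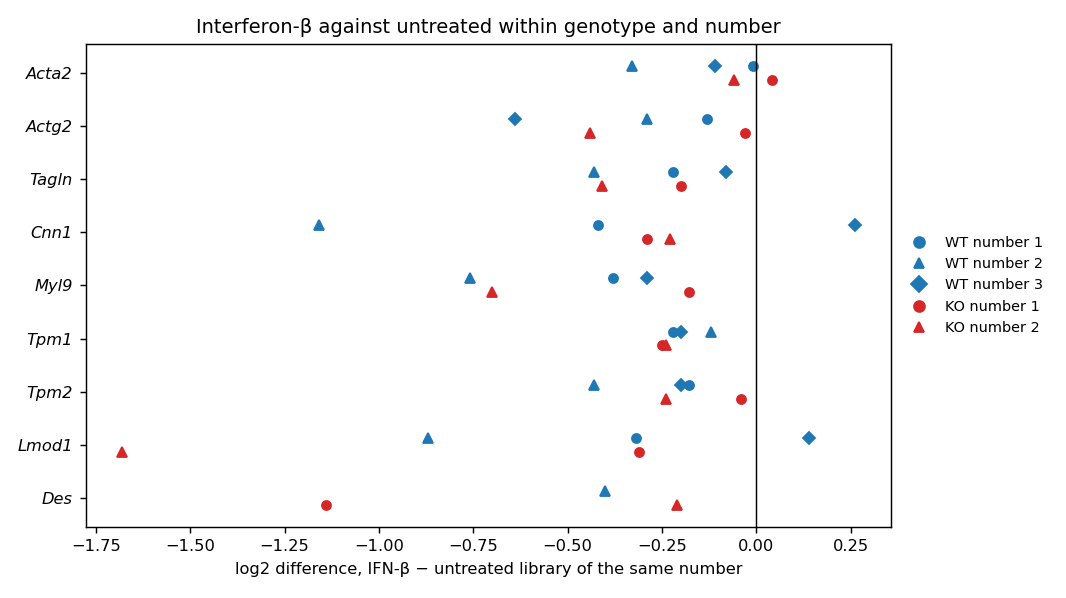
Log2 difference of each IFN-β library minus the untreated library of the same genotype and number (x axis), blue WT-labelled, red KO-labelled, marker shape by number; pairs under the floor are left out. For Actg2, Tagln, Myl9, Tpm1 and Tpm2 all 5 points lie below 0.

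The regulators of these genes were measured alongside. Of 13 tested genes for SRF, its coactivators and related factors, 6 were lower and 1 was higher in number 2 than in number 1 (median −0.29 on the log2 scale against 0.02 for all genes). In either direction this share was near the 48.6% of all genes that passed. By direction, 23.3% of all genes were lower and 25.3% higher. Srf itself had 1705, 1016 and 1179 normalised reads in untreated and 1455, 958 and 1285 in treated WT-labelled libraries. In KO-labelled libraries Srf had 1677 and 1092 untreated, and 1205 and 850 with IFN-β. It was lower in number 2 by −0.62 ± 0.08 (limma adjusted p = 0.000774). Myocd, the myocardin gene, had 1 to 20 reads and was lower by −1.45 ± 0.39 (adjusted p = 0.0164). Tead1, a CATTCC-binding factor (−0.89 ± 0.14), and the SRF cofactor Fhl2 (−0.85 ± 0.15) were also lower, while Klf4, known as a repressor of smooth-muscle genes, was higher (0.70 ± 0.24, adjusted p = 0.038). The MRTF genes Mkl1 (−0.23 ± 0.11, adjusted p = 0.1) and Mkl2 (0.24 ± 0.09, adjusted p = 0.0572) did not pass.

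The regulators were also compared by treatment and genotype. With the block, Klf4 was higher with IFN-β in WT-labelled cells by 1.75 ± 0.27 on the log2 scale (limma adjusted p = 0.00621) and Gata6, a factor of smooth-muscle differentiation, by 0.82 ± 0.13 (0.00564). Neither passed without the block (0.0649 and 0.068). No regulator passed in either genotype comparison without the block. With it, Cited2 was higher (0.36 ± 0.09) and Fhl2 was lower (−0.90 ± 0.21) in untreated KO-labelled cells. With IFN-β Myocd (1.97 ± 0.53) and Cited2 (0.40 ± 0.09) were higher and Fhl2 was lower (−0.81 ± 0.21), so 2 and 3 of 13 passed, where 26.6% and 26.0% of all genes did. Within number 2, 4 regulators were higher and 1 was lower in KO-labelled cells, where 41.2% of all genes passed. None of the 13 passed in the test of whether the number step differs between genotypes, where 4.40% of all genes did. Srf gave 0.11 ± 0.15 there and Mkl1 0.47 ± 0.13.

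Other contractile and actin genes were measured in the same comparison. Of 26 tested further smooth-muscle and thin-filament genes, 18 were lower and 2 were higher in number 2 (median −0.64 on the log2 scale), where 23.3% of all genes were lower and 25.3% higher. The LIM-domain gene Fhl1 was lower by −3.10 ± 0.13, the matrix protein gene Npnt by −2.43 ± 0.23, the actin crosslinker Actn1 by −1.29 ± 0.09 and the LIM-domain gene Csrp1 by −1.22 ± 0.11. Synpo2 (0.78 ± 0.26) and the small heat-shock protein gene Hspb6 (0.66 ± 0.14) were the 2 higher genes. The cytoplasmic actins Actb (−0.68 ± 0.11) and Actg1 (−1.30 ± 0.10) were both lower. Actb had 54260 to 64229 normalised reads in number 1 and 31604 to 48011 in number 2.

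Transforming growth factor β (TGF-β) is a known inducer of ACTA2 in fibroblasts. Of 14 tested genes of its ligands, receptors, SMADs and targets, 5 were lower and 3 were higher in number 2 (median −0.21 on the log2 scale). Thbs1, which activates latent TGF-β, was lower by −2.23 ± 0.37, and the feedback inhibitors Smad7 by −1.41 ± 0.10 and Skil by −1.32 ± 0.12. The step was larger in KO-labelled cells for Thbs1 (−2.04 ± 0.19) and Tgfb2 (−1.28 ± 0.22), 2 of the 14 genes. In that test of the step 4.40% of all genes passed, 2.01% in this direction. These lists were chosen with earlier results known. The counts for number 2 against number 1 describe them beside the 48.6% of all genes that passed there (23.3% lower, 25.3% higher).

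Genotype reached a few of the listed genes even without the block. Hspb7, a small heat-shock protein gene of muscle, was higher in KO-labelled cells by 3.40 ± 0.53 untreated and 2.43 ± 0.53 with IFN-β on the log2 scale, and Synpo2, an actin-bundling protein gene, by 2.35 ± 0.54 and 2.33 ± 0.54. With IFN-β Hspb1 (2.46 ± 0.59) and Csrp2 (1.74 ± 0.44) were higher too, making 4 of 26 genes, against 2 of 26 untreated. Ltbp2, a matrix protein related to the latent TGF-β binding proteins, was lower by −3.46 ± 0.71 untreated and −3.42 ± 0.71 with IFN-β, and the TGF-β co-receptor Tgfbr3 by −1.43 ± 0.21 and −1.65 ± 0.21. They were the only 2 of 14 TGF-β genes to pass in each treatment. Over all genes 6.23% passed untreated and 6.55% with IFN-β without the block, and 26.6% and 26.0% with it. With the block, 7 of the 26 genes were higher and 4 were lower untreated, and 7 and 5 with IFN-β. Of the 14 TGF-β genes, 3 were lower with the block untreated, and 4 were lower and 1 was higher with IFN-β. Among the cell type markers Dcn (−4.44 ± 0.18 and −4.50 ± 0.18) and Lum (−4.06 ± 0.69 and −3.39 ± 0.69) were lower in KO-labelled cells without the block, untreated and treated in turn. The other 9 of the 11 tested fibroblast markers did not pass, and the list median was 0.14 untreated and 0.06 with IFN-β. The pericyte marker Cspg4 was higher in KO-labelled cells (3.56 ± 0.74 in both). The other 3 of the 4 tested pericyte markers did not pass, and that list median was −0.48 and −0.58. The part of cell composition in these genotype differences was not tested.

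**Figure D5:**
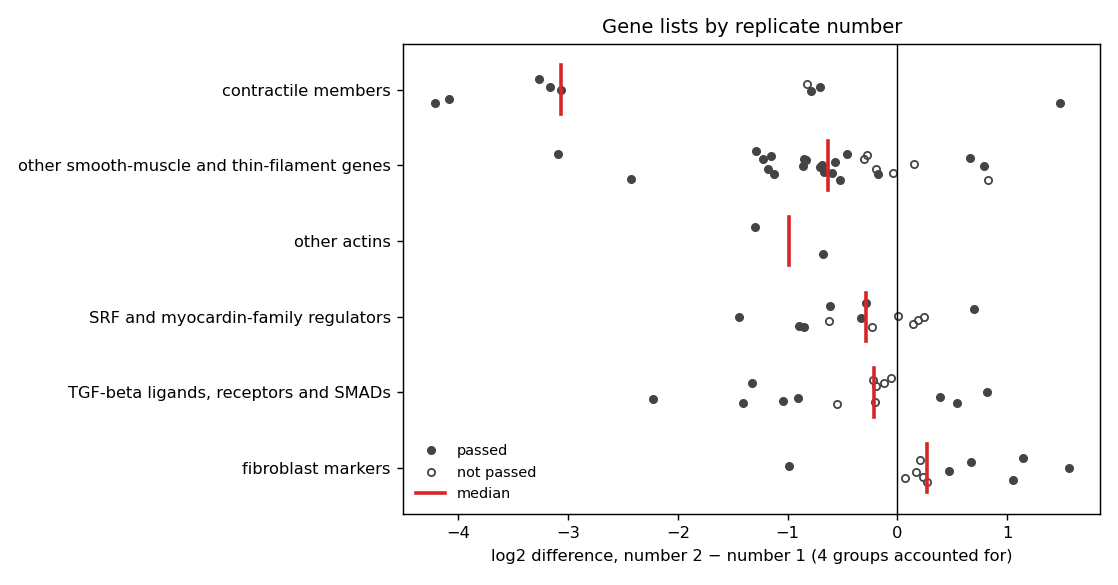
Log2 difference of libraries numbered 2 minus number 1 (x axis) for each tested gene of 6 lists, filled where limma's adjusted p was under 0.05, red bars the list medians. The contractile genes hold the lowest median, −3.07, and fibroblast markers lie around 0.27.

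Among the other tested genes, the profiles most like that of Acta2 over the 10 libraries were those of Sdc4 (Pearson r = 0.997), Trmt61a (0.988), Ctu2 (0.988), 2610027L16Rik (0.987) and Trmt6 (0.987), on log2 of the normalised reads plus 1. For Tagln they were Trmt61a (0.994), Wnt11 (0.99), Metrnl (0.989), Elac2 (0.988) and Mgat2 (0.987). Sdc4, a cell-surface proteoglycan gene of focal adhesions, ranged from 1730 to 7350 normalised reads, and Wnt11, a secreted ligand gene, from 1.82 to 90.6. Acta2 correlated with Actg2 at 0.992 and with Tagln at 0.987 but with Tpm1 at 0.674, Lmod1 at 0.429 and Des at −0.513. These values describe 10 libraries that differ mainly by number, and the genes were picked as the highest of all tested.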

How the data were processed

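Directional total-RNA libraries were sequenced, per the labels. The submitters' processing notes name cutadapt 1.13, STAR 2.5.2a, HTSeq, DESeq2 and the mm10 build, while the annotation, strand setting and filters are not given in the sources used here. The deposited values are a signal per gene: reads scaled by the authors with a factor for each library. Dividing by the value of 1 read gave whole reads for 100% of values within 0.001 reads. Depth was 13565815 to 16329729 reads, and the floor of 3 reads covers counting error only.

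Tests used limma-trend (version 3.58.1, under R 4.3.3) on log2(normalised reads + 1), fitted to all 10 libraries, 4 group means. Genes were kept by filterByExpr from edgeR 4.0.16 with a minimum count of 10, and p-values were Benjamini-Hochberg adjusted over 12313 genes. The number comparisons have the replicate number as a block. Fits with the number separate in each genotype were added after seeing the data. The numbers were taken to pair the samples, judged from the data. Deviations from group means correlated at 0.48 to 0.871 in 13 same-number pairs, against at most 0.318 in 24 others. These pairs are not independent. In KO-labelled groups of 2 the deviations are mirror images, so their values repeat with the sign turned. Between the 2 WT-labelled groups, same-number pairs gave 0.789, 0.608 and 0.672, and the others at most 0.01. The scripts were tested on simulated data. Alternatives were other pseudocounts, filters and scalings, edgeR and DESeq2 1.42.0 on the whole reads, and left-out libraries. The genes and lists were chosen with earlier results of these data known. Some genes of these lists are not reported here and are in none of the list counts. Named genes are all members, up to 4 passing genes a list and comparison by size, the SRF, myocardin, MRTF and cytoplasmic actin genes, and the 5 genes most like Acta2 and most like Tagln. Positions are from GENCODE M21 (GRCm38).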

Additional observations from a re-analysis of the deposited data

Results flagged for a closer look

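The step from libraries numbered 1 to number 2 differed between the WT-labelled and KO-labelled cells for 5 contractile genes, by a direct test of the difference within the model. The differences were −2.38 for Tagln, −2.35 for Actg2, −2.24 for Acta2, −1.28 for Myl9 and −0.53 for Tpm1 on the log2 scale, each with the larger drop in KO-labelled cells. Each step rests on 1 untreated and 1 treated library per number and genotype. The groups hold 2 or 3 libraries, too few to look for single outlying samples.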

How the results depend on the processing

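Tests of the 9 genes over the 10 libraries are limited by 2 or 3 libraries a group and by few reads for Lmod1, Des and Myh11. The 5 comparisons of groups gave 0 called genes under every alternative, except 1 (Tpm1, KO-labelled against WT-labelled with IFN-β) with the replicate block, which pairs libraries by number and changed no other group call. The count for the number step between genotypes was 3 without a filter on low counts, where 324 of 16590 genes passed. It was 3 to 7 without 1 WT-labelled library each, where 190 to 3615 of all tested genes passed. Leaving out a KO-labelled library leaves 1 in its group, and the calls lost there are named above. Leaving out 1 WT-labelled library each gave 3 to 5 genes between genotypes in number 1, where 2033 to 6400 of all tested genes passed. No value that passed its test reversed, and the cause of the reversals below was not tested. On recovered reads the difference of KO-labelled from WT-labelled cells reversed to 0.38 (DESeq2) and 0.37 (edgeR) for Acta2 and 0.14 and 0.12 for Tagln untreated, and with IFN-β to 0.49 and 0.47 for Acta2, 0.15 and 0.13 for Tagln and 0.11 (edgeR) for Actg2. The IFN-β difference of Acta2 in KO-labelled cells became 0.028 and 0.021. With the block, that of Tpm2 between genotypes became −0.17 untreated and −0.034 with IFN-β, and −0.19 and −0.016 when both WT-labelled libraries numbered 3 were also left out. Leaving out 1 library each, uncalled log2 differences that reversed spanned these ranges. In KO-labelled cells with against without IFN-β the range was Acta2 −2.13 to 2.11, Actg2 −3.03 to 2.56, Cnn1 −2.28 to 1.76, Des −1.42 to 0.069, Myl9 −2.47 to 1.59, Tagln −3.00 to 2.38, Tpm1 −0.73 to 0.25 and Tpm2 −0.70 to 0.43. In WT-labelled cells with against without IFN-β the range was Acta2 −0.95 to 0.58, Actg2 −1.55 to 0.73, Cnn1 −1.28 to 0.39, Lmod1 −1.16 to 0.44, Myl9 −1.45 to 0.45 and Tagln −1.24 to 0.74. Between genotypes untreated they were Acta2 −2.43 to 1.71, Actg2 −3.37 to 1.81, Cnn1 −0.36 to 3.67, Lmod1 −1 to 0.55, Myl9 −0.12 to 3.43, Tagln −3.36 to 1.82 and Tpm2 −0.36 to 0.57. Between genotypes with IFN-β they were Acta2 −2.33 to 1.90, Actg2 −3.45 to 2.13, Cnn1 −0.15 to 3.81, Myl9 −0.34 to 3.72, Tagln −3.53 to 1.85 and Tpm2 −0.33 to 0.80. Between genotypes in number 2 they were Des −0.38 to 1.02 and Lmod1 −0.76 to 0.61.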
